A study of Homo sapiens with 4 samples.

Results

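The human glycosyl hydrolase 18 family holds the chitinases and their lectin-like relatives, and 5 of its genes (CHI3L1, CHI3L2, CHIT1, CHID1 and CTBS) were taken from the 23622 genes of the MV4-11 expression table by their symbols. The choice was made with the values of these libraries known, so the difference of each member between the groups is given as a description, with no test. Levels were measured by RNA sequencing in MV4-11, an established acute leukemia cell line of the myelomonocytic lineage. The study asked which transcripts change when IRF1, a transcription factor of the interferon response, is depleted with a short hairpin RNA. There were 2 control libraries (sh-NC) and 2 knockdown libraries (sh-IRF1). All 4 carry the genotype label WT. The sample labels give the controls as untreated, while the table names them sh-NC, and per the study's methods cells were infected with a lentiviral hairpin vector and collected after some days of puromycin selection. The labels do not say which hairpin these libraries carry or whether the replicates were separate cultures, though the methods describe independent repeats in general, so the spread between replicates may be technical.

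Glycosyl hydrolase 18 enzymes cut chains of N-acetylglucosamine, the sugar of chitin, with a glutamate that closes a short conserved motif. CHIT1 (chitotriosidase), made by mature macrophages, and CHIA (acidic mammalian chitinase) keep that glutamate and cleave chitin. CHI3L1 (YKL-40) and CHI3L2 (YKL-39) are secreted chitin-binding proteins without enzyme activity, CHI3L1 being a known product of macrophages, neutrophils, chondrocytes and several tumors. CTBS (chitobiase) works inside lysosomes, where it trims the N-acetylglucosamine core left from N-glycans, and CHID1 (stabilin-1 interacting chitinase-like protein) is a secretory and lysosomal glycan-binding protein.

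The coding sequences at that motif show how the members differ in kind. Shown are 24 bases for both chitin-cleaving enzymes and for the closest members without activity. The codon at the place of the catalytic glutamate is in capitals (GENCODE release 44 transcripts, hg38, written 5′ to 3′ on the strand of the gene). The CHIT1 stretch lies in exon 5 at chr1:203223555-203223578 on the minus strand, that of CHI3L1 in exon 5 at chr1:203183686-203183709 on the minus strand, that of CHI3L2 in exon 5 at chr1:111234989-111235012 on the plus strand, and that of CHIA in exon 6 at chr1:111315352-111315375 on the plus strand.
CHIT1: gacggccttgaccttgactggGAG
CHIA: gacgggctggactttgactggGAG
CHI3L1: gatgggctggaccttgcctggCTC
CHI3L2: gatggactggatgtaagctggATC
CHIT1 and CHIA end in a glutamate codon and differ at 3 bases. CHI3L1 has a leucine codon there and differs from CHIT1 at 7 bases, and CHI3L2 has an isoleucine codon and differs at 11. Over the whole protein CHI3L1 was identical to CHIT1 at 53.3% of 381 aligned residues and to CHI3L2 at 51.6% of 382. The longest identical run between the canonical transcripts of any 2 of the 5 members was 18 bases, and for CHI3L1 against another member it was 16 bases. The complete motif was matched in CHIT1 and CHIA and in none of CHI3L1, CHI3L2, CHID1 and CTBS. Only this strict form was searched, and the place of the glutamate was not examined in CHID1 and CTBS. The lack of a match does not make CTBS inactive.

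Values are normalized counts, the reads of a gene divided by 1 size factor per library. The libraries held 17635908 and 17651512 recovered reads (sh-NC) and 17697836 and 18695337 (sh-IRF1). IRF1 (ENSG00000125347) had normalized counts of 785 and 738 in sh-NC and 430 and 432 in sh-IRF1, 56.6% of control. It shares 22.9% of its exonic bases with an overlapping annotated gene, so part of these reads is uncertain. Of 10 myeloid and leukemia line markers, 10 were measured, with a summed normalized count of 40961 to 41022 in sh-NC and 36337 to 36430 in sh-IRF1. None of the T cell, erythroid and epithelial markers was among the genes analysed here. The chondrocyte marker COL2A1 did not exceed 1.99 and the fibroblast marker COL1A1 did not exceed 4.97. The 2 B cell markers measured summed to 84.1 to 112 in sh-NC and 235 to 289 in sh-IRF1, through CD79A. The platelet lineage marker ITGA2B had 69.8 and 83.2 in sh-NC and 40.8 and 32.8 in sh-IRF1, a log2 difference of -1.04 (limma adjusted p = 0.0028). The part of both lineages' markers in the results below was not tested. In bulk libraries, fewer cells of a type and less RNA per cell cannot be told apart.

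CHI3L1 made up most of the family's transcript level in both groups and was higher after IRF1 knockdown. CHI3L1 (ENSG00000133048; chr1:203178931-203186704, minus strand, 10 exons) had normalized counts of 7048 and 6625 in the sh-NC libraries and 18708 and 19013 in the sh-IRF1 libraries. Both knockdown libraries were far above both controls, and the groups did not overlap. The control mean was 6837 ± 299 and the knockdown mean 18861 ± 215 (SD, n = 2 each), which is 2.76-fold higher. On the log2(value + 1) scale the difference was 1.46 ± 0.030 (SE), and it ranged from 1.42 to 1.51 when each library was left out in turn. This transcript took 0.0390% and 0.0365% of the reads of the sh-NC libraries and 0.106% and 0.109% of those of the sh-IRF1 libraries.

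CHI3L1 was both an abundant transcript and among those with a larger difference. In normalized counts per kilobase of canonical transcript, its level was 3913 in sh-NC and 10796 in sh-IRF1, which placed it 244th and 73rd of 23456 genes with a length. Among the 14120 tested genes, 1.57% had a higher log2 fold change. Of 640 tested genes with a mean normalized count of at least 5000, 1 had a higher log2 fold change than CHI3L1. The limit of 5000 was not planned, and the mean includes the sh-IRF1 values. CHI3L1 was chosen with this contrast known, so its place is a description only. Per kilobase, CHI3L1 was 8.46 times the level of CHID1 in sh-NC and 18.2 times in sh-IRF1, and its share of the summed level per kilobase of the 5 members was 88.6% and 94.5%.

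CHID1 showed a smaller difference in the same direction with close replicates. CHID1 (ENSG00000177830; chr11:867859-915058, minus strand, 13 exons) had normalized counts of 1504 and 1511 in sh-NC and 1930 and 1929 in sh-IRF1. The groups did not overlap and each pair of replicates lay close together. Its mean in sh-IRF1 was 128% of control, with a log2 difference of 0.36 ± 0.054 (SE). Each single library left out gave 0.35 to 0.36. That is under the log2 fold change of 0.5 needed for a call, so CHID1 was not called.

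CTBS did not separate by group. CTBS (ENSG00000117151; chr1:84549611-84574480, minus strand, 7 exons) had normalized counts of 146 and 202 in sh-NC and 203 and 191 in sh-IRF1. The lowest value was sh-NC replicate 1, and the other 3 libraries lay close together. The means were 174 ± 40.1 and 197 ± 8.33 (SD, n = 2 each), and the log2 difference was 0.20 ± 0.16 (SE). With single libraries left out, this difference ran from -0.039 (without sh-NC replicate 1) to 0.43. Of its exonic bases, 23.3% are shared with an overlapping annotated gene, and the use of strand in counting is not given in the sources used here, so part of these reads is uncertain.

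CHI3L2 was a low-count gene with values in the opposite direction to CHI3L1. CHI3L2 (ENSG00000064886; chr1:111200771-111243440, plus strand, 11 exons) had normalized counts of 13.3 and 20.5 in sh-NC and 4.97 and 1.87 in sh-IRF1. These rest on 13 and 20 reads in the controls and 5 and 2 reads in the knockdown libraries. The groups did not overlap, but the gene passed the filter on low values through the sh-NC libraries alone. Relative to all reads, the 33 control reads against 7 gave a ratio of 4.86. This ratio is a description of these reads, with no test. The fitted log2 difference of -2.08 ± 0.75 (SE) ran from -2.61 to -1.56 with single libraries left out, and the gene was no longer called once either control library, or sh-IRF1 replicate 2, was left out.

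CHIT1, the active chitinase of macrophages, was at the limit of detection. CHIT1 (ENSG00000133063; chr1:203212827-203273641, minus strand) had 4 reads in sh-NC replicate 1 and 0 in the other 3 libraries. A count of 0 allows up to 3 reads in a library, so a change in CHIT1 was not detectable at this depth and no fold is given. Of the related genes outside the set, CHIA was not among the genes analysed here. OVGP1 (oviductin, a chitinase-like glycoprotein of the oviduct) had normalized counts of 16.4 and 7.19 in sh-NC and 5.97 and 16.9 in sh-IRF1, with overlapping groups and a log2 difference of -0.098 ± 0.66 (SE).

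Of the 5 members, 4 passed the filter, and 3 did not overlap between the groups. As a description only, 2 lay past the limits used to call other genes (CHI3L1 higher and CHI3L2 lower). Among all 14120 tested genes, 15.8% were called in either direction, 8.27% higher and 7.56% lower, and in 69.2% the groups did not overlap, 34.2% with the sh-IRF1 values higher and 35.0% with them lower. The members were chosen on this contrast, and nothing is read from their share.

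**Figure D1:**
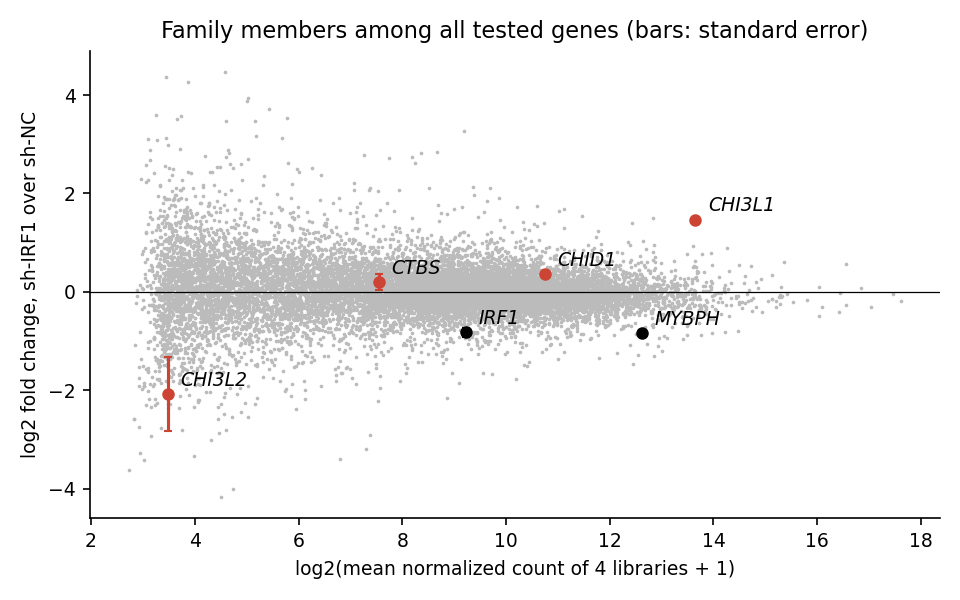
Log2 fold change of sh-IRF1 over sh-NC (vertical axis) against log2(mean normalized count of 4 libraries + 1) (horizontal axis) for the 14120 tested genes (grey), with the 4 tested members (red), IRF1 and MYBPH (black) and standard errors as bars. CHI3L1 stands at 1.46 among abundant genes of which few lie above 1, while CHI3L2 lies at the low-count end, where the fold changes of all genes spread widely.

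The nearest tested neighbor of CHI3L1 fell after IRF1 knockdown. CHI3L1 lies on chromosome 1 between CHIT1 and MYBPH (myosin binding protein H), all on the same strand, and MYBPH follows 3.1 kb past its end. MYBPH had normalized counts of 8064 and 8077 in sh-NC and 4619 and 4430 in sh-IRF1. Every knockdown value was below every control value, and it fell by 0.84 ± 0.035 on the log2 scale (limma adjusted p = 1.02e-24). In these libraries MYBPH was above CHI3L1 in normalized counts in both controls and below it in both sh-IRF1 libraries; these values are not scaled to transcript length.

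Within 500 kb of CHI3L1, 39 other genes are annotated, 20 were in the table and 15 were tested. By limma 0 were called higher (0 also by edgeR and by DESeq2, and 4 at an unadjusted p under 0.05 with any fold), beside 8.27% of all tested genes, and 3 lower, beside 7.56%, namely MYBPH, BTG2 (an antiproliferative p53 target) at -0.66 ± 0.13 (SE) and SYT2 (a synaptotagmin) at -1.61 ± 0.58. BTG2 was not called without sh-IRF1 replicate 1 (log2 difference -0.47). SYT2 is a low gene, with normalized counts of 23.6 and 21.6 in sh-NC and 5.97 and 7.50 in sh-IRF1, and its call was lost with DESeq2 and when either control library or sh-IRF1 replicate 1 was left out. SYT2 passed the filter through the sh-NC libraries alone and shares 27.0% of exonic bases with an overlapping annotated gene. At an adjusted p under 0.05 with any fold, 3 of the 15 were higher and 5 lower. The median log2 difference of the 15 was -0.084, beside -0.0019 over all tested genes.

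**Figure D2:**
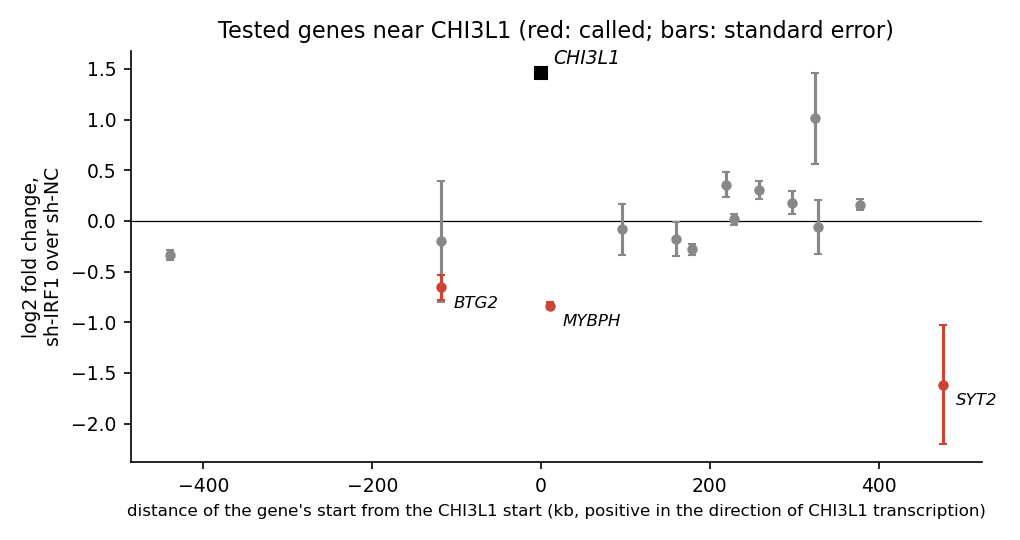
Log2 fold change of sh-IRF1 over sh-NC (vertical axis, bars are standard errors) for CHI3L1 (black square) and the 15 tested genes within 500 kb of it, against the distance of their starts in kb (horizontal axis, positive in the direction of CHI3L1 transcription). The called neighbors (red) MYBPH, BTG2 and SYT2 all lie below 0, opposite to CHI3L1.

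Around CHI3L2 and CHID1 the calls went both ways, and around CTBS and CHIT1 the few called genes were lower. Of 13 tested genes near CHI3L2, 1 was called higher, DENND2D (a guanine exchange factor for Rab proteins) at 0.68 ± 0.11 (SE), whose annotated span overlaps that of CHI3L2 with no shared exonic base, and 1 unnamed gene (ENSG00000232811) was called lower, a call lost with DESeq2 and without sh-IRF1 replicate 2. ENSG00000232811 shares 28.2% of exonic bases with LRIF1, a more abundant neighbor with a log2 difference of -0.49. Part of the reads of ENSG00000232811 is therefore uncertain. Of 30 near CHID1, 3 were called higher and 2 lower. The higher were TOLLIP (an adaptor of Toll-like receptor signaling) at 0.58 ± 0.050, RASSF7 at 0.53 ± 0.12 and the noncoding GATD1-DT at 1.19 ± 0.41, and the lower were the noncoding MIR210HG at -2.59 ± 0.61 and CD151 (a tetraspanin) at -0.54 ± 0.068. Without sh-IRF1 replicate 2, RASSF7, GATD1-DT and CD151 were not called, and CD151 was also not called without sh-NC replicate 2 or with scaling to total reads. Near CTBS, 1 of 7 was called, GNG5 (a G protein gamma subunit) at -1.23 ± 0.20. Near CHIT1, 0 of 14 were called higher and 2 lower, MYBPH and BTG2, which also lie near CHI3L1. Over the 65 tested neighbors of all members, 4 were called higher and 7 lower, beside 8.27% and 7.56% of all tested genes. These counts are near those shares, and nothing about the loci is read from them.

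The enzymes that, like CTBS, dismantle N-glycans were called in 1 direction. Of 14 listed enzymes, 14 were tested, and 5 rose and 0 fell by limma, edgeR and DESeq2 at the fold limit. Limma called 8.27% of all tested genes higher and 7.56% lower. The median log2 difference of the list was 0.39 (2 were lower at an unadjusted limma p under 0.05 with any fold). NEU1 (the lysosomal sialidase) had normalized counts of 703 and 696 in sh-NC and 1923 and 1831 in sh-IRF1, and rose by 1.42 ± 0.065 (SE; limma adjusted p = 3.01e-23). Its partner CTSA, the protective protein that stabilizes it, went from 2087 and 2060 to 4895 and 4941, a log2 difference of 1.25 ± 0.042 (limma adjusted p = 3.17e-28). In both genes the replicates differed far less than the groups.

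HEXA, the alpha subunit of hexosaminidase, had 364 and 387 normalized counts in sh-NC and 788 and 763 in sh-IRF1, a rise of 1.04 ± 0.093. The fucosidase FUCA1 rose by 0.91 ± 0.11 and the mannosidase MAN2B2 by 0.51 ± 0.053, and MAN2B2 fell under the fold limit without sh-IRF1 replicate 2 (0.50 after rounding). At an adjusted p under 0.05 with any fold, 10 of the 14 were higher, and 2 lower. CTBS itself, which acts on the N-acetylglucosamine core, had overlapping groups. CTSA shares 21.5% and HEXA 16.7% of exonic bases with an overlapping annotated gene.

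N-acetylglucosamine, the sugar that the family cuts or binds, is recycled and made by a further set of enzymes, of which 12 of 13 were tested. Here 3 rose and 0 fell by limma, edgeR and DESeq2 at the fold limit (4 were lower at an unadjusted limma p under 0.05 with any fold). Over all tested genes, limma called 8.27% higher and 7.56% lower. The median log2 difference of the list was -0.047. RENBP (renin-binding protein, an N-acetylglucosamine epimerase) had normalized counts of 50.3 and 49.3 in sh-NC and 124 and 133 in sh-IRF1, a rise of 1.35 ± 0.23. GNPDA1 (glucosamine-6-phosphate deaminase) rose by 0.89 ± 0.10, from 382 and 364 to 750 and 636, and NAGK (N-acetylglucosamine kinase) by 0.81 ± 0.12, from 283 and 236 to 487 and 421. At any fold, GNPDA2 (-0.35), UAP1 (-0.33) and OGT (-0.30) were lower at an adjusted p under 0.05. GNPDA2 is a paralog of GNPDA1 that catalyses the same deamination, UAP1 makes the activated sugar and OGT attaches it to proteins.

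Among reported receptors and binding partners of CHI3L1, the called genes were lower. Of 10 listed, 8 were in the table and 6 tested. By limma, edgeR and DESeq2, 0 were called higher and 2 lower (1 was higher at an unadjusted limma p under 0.05). The limma shares over all tested genes were 8.27% higher and 7.56% lower. Past the adjusted p limit at any fold, 1 receptor or partner was higher and 3 were lower. The integrin subunits ITGAV and ITGB5, which pair with each other, fell: ITGAV from 402 and 361 to 228 and 254 (-0.66 ± 0.12) and ITGB5 from 572 and 603 to 350 and 391 (-0.67 ± 0.10). CD44, a hyaluronan receptor, had 3982 and 4130 normalized counts in sh-NC and 3348 and 3338 in sh-IRF1, a log2 difference of -0.28 ± 0.041 that did not reach the fold limit. TMEM219, a coreceptor for CHI3L1, was the one with a positive difference past the adjusted p (0.16 ± 0.063). PTGDR2 and ITGB3 were too low to test, and IL13RA2 and SDC1 were not among the genes analysed here.

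CHI3L1 is also known as a product of maturing macrophages and of neutrophil granules, and genes of these programs moved in both directions. Of 20 macrophage genes, 16 were in the table and 9 tested. Among those tested, 3 rose and 1 fell, with a median log2 difference of 0.22. Among all tested genes, 8.27% were called higher and 7.56% lower. The integrin subunit ITGAX (CD11c) rose by 1.08 ± 0.099, from 313 and 347 to 681 and 710, and the signaling adaptor TYROBP by 0.58 ± 0.051, from 1717 and 1621 to 2512 and 2460. GPNMB, a glycoprotein of lysosome-rich macrophages, was low in all libraries, with normalized counts of 6.15 and 2.05 in sh-NC and 27.9 and 33.7 in sh-IRF1. It rose by 2.76 ± 0.63 and passed the filter through the sh-IRF1 libraries alone. The protease CTSK fell by 1.24 ± 0.41, a call lost without sh-NC replicate 2 or sh-IRF1 replicate 1. CD68, MARCO, APOE and SPP1 did not exceed 25.3 in any library. CD68 was tested and not called (1.09 ± 0.63). It shares 85.6% of exonic bases with an overlapping annotated gene, so its low count is uncertain.

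Of 16 neutrophil granule genes, 12 were in the table and 7 tested. Among those tested, 2 rose and 2 fell, beside 8.27% called higher and 7.56% lower of all tested genes. The median log2 difference of the list was 0.13. The gelatinase MMP9 had normalized counts of 209 and 193 in sh-NC and 28.8 and 11.2 in sh-IRF1, a log2 difference of -3.40 ± 0.30 (limma adjusted p = 2.08e-13), and the primary granule enzyme MPO (myeloperoxidase) fell by 1.42 ± 0.13. LYZ (lysozyme) rose by 0.85 ± 0.047 and PRTN3 (proteinase 3) by 0.54 ± 0.025. LTF, CAMP, HP and PGLYRP1, which mark later granules, did not exceed 6.96 in any library, and LCN2 was at 0 in both controls and at 7.96 and 7.50 in sh-IRF1, all too low to test. MMP9 shares 18.4% and LYZ 34.7% of exonic bases with an overlapping annotated gene.

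**Figure D3:**
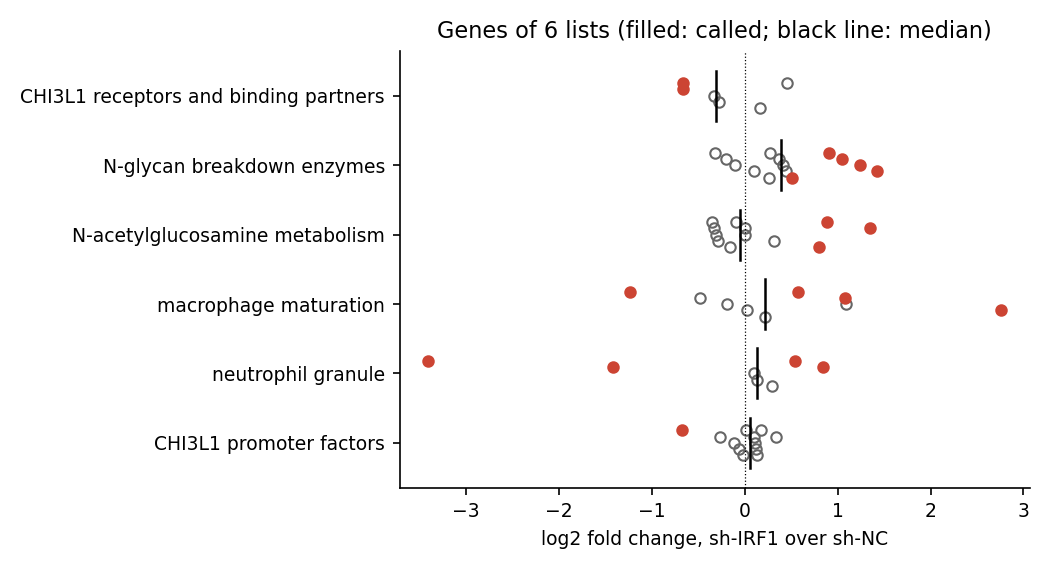
Log2 fold change of sh-IRF1 over sh-NC (horizontal axis) for the tested genes of 6 lists related to the family (one row each), with called genes filled in red, others open and the list's median as a black line. The 5 called N-glycan enzymes lie to the right of 0, the 2 called receptors lie to its left, and the macrophage and granule lists have called genes on both sides.

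Of 12 transcription factors linked to the CHI3L1 promoter, 12 were tested. Limma, edgeR and DESeq2 each called 0 higher and 1 lower (4 were higher at an unadjusted limma p under 0.05). As limma called 8.27% of all tested genes higher and 7.56% lower, 1 of 12 lower is near the general share. CEBPB, a C/EBP family factor of myeloid and inflammatory gene expression, had normalized counts of 3012 and 3093 in sh-NC and 1906 and 1912 in sh-IRF1, and fell by 0.68 ± 0.047 (limma adjusted p = 1.18e-16). With any fold at the same adjusted p limit, SPI1 (0.17), USF2 (0.33) and STAT3 (0.14) were higher, and SP3 (-0.26), CEBPA (-0.11) and CEBPB were lower. In the RefSeq promoter windows (250 bases before to 50 after each start), GAAA repeated after any 2 bases was searched on both strands. This string is the core of an interferon-stimulated response element. It was found in 0 of 6 windows of the 5 members and in 3.57% of 35116 windows of all genes. With so few windows and so rare a string, 0 is the usual outcome, so nothing about the members is read from it. Sequence outside the windows and other forms of the element were not searched.

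The genes whose 4 values lay nearest to those of CHI3L1, by Euclidean distance of log2(value + 1) from the control mean among 9987 genes with a mean of at least 100, were QSOX1 (a secreted sulfhydryl oxidase; distance 0.080), APOBR (a lipoprotein receptor of macrophages; 0.096), CD82 (a tetraspanin; 0.099), the sialidase NEU1 (0.10) and ALCAM (an adhesion molecule; 0.11). Their mean normalized counts were 3810 and 10814 for QSOX1, 502 and 1384 for APOBR, 924 and 2455 for CD82, 700 and 1877 for NEU1 and 225 and 610 for ALCAM, in sh-NC and sh-IRF1 in turn. QSOX1 was the abundant one among them. For CHID1 the nearest were MLLT1 (0.0089), LGALS9 (0.016) and GMIP (0.018), and for CTBS they were SFXN5 (0.071), MAP4K3-DT (0.076) and FANCB (0.077). No gene lay as near to CHI3L2, for which the closest was BNIP3 at 0.70, followed by CD209 and TBXA2R at 0.80 each. With 4 libraries, nearness is a description of these libraries.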

How the data were processed

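The table as deposited holds a normalized signal, for which the authors scaled gene read counts with 1 size factor for each library. The submitters' processing notes name HISAT2 2.0.5 and hg38. The counting tool, annotation and use of strand are not given in the sources used here. All values (100%) were whole multiples of the value of 1 read (largest distance 4.43e-05 of a read), so reads were recovered. Of 23622 identifiers, 23456 matched a symbol in GENCODE release 44, which also gave positions. Genes reaching 10 in 2 or more libraries (14120) were tested with limma 3.58.1 (R 4.3.3; trend, robust) on log2(value + 1). A call needed a Benjamini-Hochberg adjusted p under 0.05 and a log2 fold change beyond 0.5. P-values measure only the spread between these samples. On simulated data, limma recovered 97.5% of 200 changed genes among 13841, with 2 false calls. This rate is for those 200 genes together. Recovery of genes with low counts, or of differences near 0.5, was not tested separately. edgeR 4.0.16, DESeq2 1.42.0 (no adjusted p for 9160 genes), other scalings, filters and pseudocounts, and leaving out each library were alternatives. The members and lists were chosen with earlier results of these data known. Named were every member, CHIA, OVGP1, IRF1, called genes of each list (up to 8 a list) and the nearest genes; others were chosen after their values were seen. Neighbors lie within 500 kb of a member. Values of some single list genes are not reported here.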

Additional observations from a re-analysis of the deposited data

How the results depend on the processing

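Depth limited CHI3L2 and CHIT1 most: the first rests on 33 and 7 reads and the second on 4 and 0. With 2 libraries a group, each value rests on few samples. No log2 difference of a called list gene or neighbor changed sign under any of the 16 alternatives. The difference of CHID1 moved by more than its narrow replicate spread, to 0.36 with TMM scaling, 0.40 with scaling to total reads and 0.36 with edgeR, and that of CHI3L2 to -1.39 at a pseudocount of 5. With the filter at 50, 0 members and 0 macrophage genes were called lower, since CHI3L2 and CTSK were then not tested. Leaving out single libraries gave 0 to 1 members lower, 0 to 1 macrophage genes lower (0 without sh-IRF1 replicate 1), and 2 to 5 neighbors higher (2 without sh-IRF1 replicate 2). A log2 fold change beyond 1 left 389 genes called higher and 318 lower in all, against 1168 and 1067, with 0 receptors lower, 3 N-glycan enzymes higher, 1 N-acetylglucosamine enzyme higher, 0 granule genes higher, 0 promoter factors lower, and 1 neighbor higher and 3 lower. Any fold gave 2861 higher and 3092 lower in all, 2 members higher (CHID1 was added), 1 receptor higher, 10 N-glycan enzymes higher and 2 lower, 3 N-acetylglucosamine enzymes lower, 2 macrophage genes lower, 4 granule genes higher, 3 promoter factors higher and 3 lower, and 13 neighbors higher and 18 lower.

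Replicate numbers are shared between the groups, but same-numbered libraries did not deviate together over genes (correlation -0.015), and the main fit did not pair them. Whether same-numbered libraries were cultured or handled together is not known from the labels. With the replicate number as a block, 1174 genes were called higher and 1066 lower, and the counts of every list and of the members were as without it.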
